A study of Mus musculus with 12 samples.

Results

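Kidney RNA of mice given alginate oligosaccharides (AOS) alone was set against kidney RNA of mice given no treatment. The 6 libraries were chosen by their labelled treatment, out of 12 in the series, with no measured value used in the choice. The AOS group holds 3 libraries from animals dosed with AOS at 10 mg/kg over 5 weeks and never given busulfan, and the control group holds 3 libraries from animals without any treatment. The other 6 libraries are 3 from animals that received busulfan once at 40 mg/kg and then AOS at 10 mg/kg over 5 weeks, and 3 from animals that received busulfan once at 40 mg/kg. They enter here because all 12 libraries share the estimate of spread, and because busulfan plus AOS against busulfan is the same AOS contrast in libraries that the untreated pair does not use. In the labels the strain is IRC, and the tissue field reads cells where title and protocol name kidney. Separate animals per sample are not stated, so the p-values reflect only how far these samples spread, which may be technical. Of 19261 genes in the deposited table, 14428 had enough reads to be tested.

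AOS are short chains of mannuronic and guluronic acid cut from alginate, the cell wall polymer of brown seaweeds. Such sugars are poorly digested by mammals, and in other work they have been given by mouth and studied for effects on gut microbes, inflammation and oxidative stress. Most kidney RNA comes from the proximal tubule, which takes back sugar, phosphate and amino acids, burns fatty acids and makes glucose, while the loop of Henle, the distal tubule and the collecting duct with its principal and intercalated cells set the final salt, water and acid content of urine. Whether AOS by itself leaves a trace in kidney transcripts is the question this pair addresses.

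The 3 AOS libraries held 14210507 to 14393144 estimated reads and the 3 control libraries 13993958 to 14358657, and a gene with a count of 0 could still lie at up to 0.208 to 0.214 CPM (reads scaled to the library total), counting error alone considered. Kap, a kidney androgen-regulated protein of the proximal tubule, had the highest level per length, at a mean of 72826 FPKM in AOS kidneys and 86629 FPKM in control kidneys. Eda2r, a receptor gene that p53 switches on after DNA damage, served as a check of the busulfan labels. It measured 0.363 to 1.05 normalized CPM in these 6 libraries and 5.79 to 10.4 normalized CPM in the 6 libraries with busulfan. It cannot check the labels of AOS against control, where it measured 0.622 to 1.05 and 0.363 to 0.721 normalized CPM and overlapped. Between an AOS and a control library the correlation of log2 levels across genes was 0.972 to 0.980, against 0.975 to 0.983 among AOS libraries and 0.975 to 0.977 among control libraries. These 3 ranges overlap, so that libraries of different groups were about as alike as libraries of the same group.

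Transcript length moved with the comparison and touches every result below that concerns short or long transcripts. Across the 13970 tested genes with a length implied by their count and FPKM, transcripts under 500 bases had a median log2 difference (AOS minus control) of -0.13, with 24.7% of 291 genes higher in AOS, and transcripts over 6000 bases had a median of 0.08, with 76.8% of 1449 genes higher. Of the genes at an unadjusted p under 0.05 in edgeR, 7 were higher and 37 lower in the shortest class, and 49 were higher and 3 lower in the longest. A single library of each group lay at the ends of this trend: relative to the mean of the 6 libraries, the shortest class had a median of -0.15 in AOS replicate 3 and 0.14 in control replicate 1, and the longest 0.10 in AOS replicate 3 and -0.09 in control replicate 1. Without both, the class medians ran between -0.07 and 0.03. Length-corrected values, an adjustment chosen after this trend was seen, are therefore given beside the gene groups, and the part of length in each result was not otherwise tested.

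**Figure D1:**
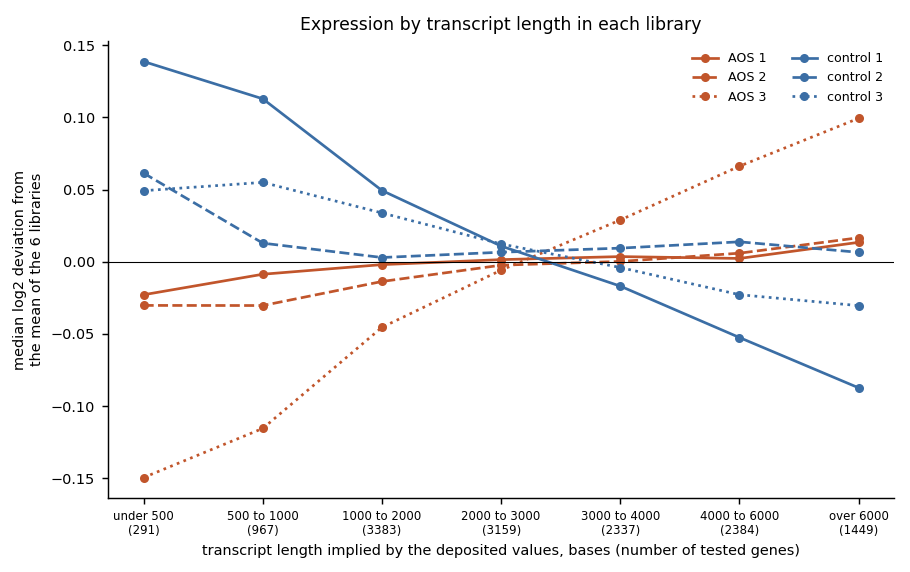
Median log2 deviation of each library from the mean of the 6 libraries (y axis) for 7 classes of implied transcript length in bases (x axis), with 1 line per AOS and control library. AOS replicate 3 (-0.15 to 0.10) and control replicate 1 (0.14 to -0.09) run in opposite directions, and the other 4 libraries stay nearer to 0.

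Across all 14428 genes tested, 0% passed the threshold of 0.05 on the adjusted p (edgeR quasi-likelihood test, Benjamini-Hochberg). The smallest adjusted p was 0.166, shared by Tpcn1 and Rsbn1. The unadjusted p was under 0.05 for 518 genes, 234 of them higher and 284 lower in AOS. If no gene differed, 721.4 genes would be expected under that value, more than were seen. DESeq2 called 10 genes, all lower in AOS, and limma with voom and quality weights called 1, Tpcn1. Over all genes tested the median log2 difference was 0.00, 51.0% of genes were higher, and 95% of genes lay between -0.51 and 0.78. Scaling by library totals alone moved the median to 0.05 and the share of higher genes to 63.9%. The 3 AOS values all lay above the 3 control values in 890 genes (6.17%) and all below in 974 genes (6.75%).

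The size of change that could have been missed depended on the level of a gene. The 95% interval of the log2 difference lay within a 2-fold change in either direction for 11084 genes, or 76.8% of those tested. By level this held for 96.8% of 2002 genes over 100 CPM, 94.2% of 7363 genes at 10 to 100 CPM and 54.9% of 3958 genes at 1 to 10 CPM. Under 1 CPM it held for 36 of 1105 genes, or 3.26%. For scarcely read transcripts a 2-fold change was thus mostly not detectable at this depth and number of libraries.

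Among the genes lower in AOS, Tpcn1, a cation channel of endosomes and lysosomes (chr5:120534157-120588678, GRCm38), came with Rsbn1 at the smallest adjusted p. It measured 98.4, 90.4 and 101 normalized CPM in the AOS libraries, against 163, 134 and 157 normalized CPM in the control libraries. The groups did not overlap, and the lowest control library stood above the highest AOS library. The leading genes named here were all chosen among genes without overlap, so their separation follows from the choice. The means were 96.4 ± 5.35 and 152 ± 15.4 normalized CPM (SD, n = 3 each), a log2 difference of -0.65 ± 0.09 (SE) with a 95% interval of -0.85 to -0.45. Its adjusted p was 0.166 in edgeR and 3.01e-07 in DESeq2, so the call depends on the tool.

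Rsbn1, round spermatid basic protein 1 (chr3:103914090-103966638, GRCm38), was the other gene at an adjusted p of 0.166 in edgeR. It had 2.67, 1.78 and 1.45 normalized CPM in AOS kidneys, against 6.82, 6.49 and 9.66 normalized CPM in control kidneys. Every AOS value was under the lowest control value, with a log2 difference of -1.96 ± 0.27 and a 95% interval of -2.56 to -1.36. None of its estimated counts was a whole number, so its reads were shared out, and its level rests on that division. With which other sequences they were shared is not given.

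Slc18a1, a vesicular monoamine transporter, had the largest log2 difference among the more abundant of the leading lower genes. It measured 138, 126 and 114 normalized CPM in AOS kidneys, against 204, 316 and 217 normalized CPM in control kidneys, a log2 difference of -0.96 ± 0.20. Control replicate 2 was the highest library, and the groups stayed apart without it. Cda, cytidine deaminase of pyrimidine salvage, measured 106, 74.5 and 84.3 normalized CPM in AOS, against 125, 124 and 138 in control, with a log2 difference of -0.55 ± 0.12. Cda is a short transcript, and length correction gave -0.44. The differences of both genes passed 0.05 in DESeq2 (adjusted p of 0.00699 and 0.0223) and not in edgeR.

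A group of 3 leading lower genes lies close together near the end of chromosome 11. Metrnl, the secreted meteorin-like hormone (chr11:121702427-121717389), measured 12.1, 10.9 and 11.5 normalized CPM in AOS and 22.9, 18.5 and 17.0 in control, a log2 difference of -0.76 ± 0.14. Fn3krp, a kinase that removes sugar adducts from proteins (chr11:121421373-121431288), measured 11.5, 9.5 and 9.88 in AOS and 16.3, 17.6 and 18.8 in control, a difference of -0.77 ± 0.15. Hexdc, a hexosaminidase (chr11:121204353-121222657), measured 24.0, 22.9 and 20.3 in AOS and 37.4, 34.3 and 39.3 in control, a difference of -0.72 ± 0.16. None of the 3 overlapped between groups, Hexdc had no whole counts, and whether neighbouring genes move together more than others was not tested. Mien1, a membrane-anchored protein linked to cell migration, had the tightest values: 67.1, 67.6 and 66.3 in AOS against 85.6, 83.1 and 85.6 normalized CPM in control, a difference of -0.34 ± 0.06 that shrank to -0.22 with length correction. Mrpl34, a protein of the mitochondrial large ribosomal subunit and also a short transcript, differed by -0.74 ± 0.16, and by -0.62 with length correction.

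A further 6 genes complete the 15 of lowest p among lower genes whose groups did not overlap. They are Tagln2, an actin-binding transgelin (-0.31 ± 0.08), Pxdn, a peroxidase that crosslinks collagen IV of basement membranes (-0.50 ± 0.13), Cisd3, an iron-sulfur protein of mitochondria (-0.41 ± 0.11), Lpar2, a receptor for lysophosphatidic acid (-1.26 ± 0.35), Mthfsl, named for likeness to a folate cycle enzyme (-0.39 ± 0.11), and Elmod3, a regulator of small GTPases (-0.45 ± 0.12). With length correction the 6 differences were -0.25, -0.57, -0.30, -1.33, -0.28 and -0.43 in this order. Their unadjusted p without it ran from 0.00265 to 0.00421 in edgeR, and none passed adjustment. Lpar2 had its highest AOS value, 4.83 normalized CPM in replicate 3, just under its lowest control value, 5.16 in replicate 3.

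Among the 15 leading genes higher in AOS, Cpb2 had the largest fold difference. Cpb2 encodes a plasma carboxypeptidase that slows the breakdown of fibrin and is made mainly by the liver. It measured 18.1, 25.6 and 22.4 normalized CPM in AOS kidneys, against 2.98, 2.60 and 1.02 normalized CPM in control kidneys. All AOS libraries stood far above all control libraries, at 22.1 ± 3.76 and 2.20 ± 1.04 normalized CPM (SD, n = 3 each), a 10.0-fold difference. On the log2 scale this was 3.32 ± 0.90 with a 95% interval of 1.33 to 5.32, and its unadjusted p was 0.00385 in edgeR. The 15 hepatocyte markers summed to 497, 164 and 161 CPM of library total in AOS, against 322, 208 and 211 CPM in control, with AOS replicate 1 the highest and the groups overlapping. Their median log2 difference was -0.05, with 5 of 15 higher, but -0.97 without AOS replicate 1 and 0.52, with 13 of 15 higher, without AOS replicate 3 and control replicate 1. Their part in the Cpb2 values was not tested.

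Pik3r1, the regulatory subunit of phosphoinositide 3-kinase through which insulin signals, was higher by a small and steady margin. It measured 63.9, 68.9 and 70.8 normalized CPM in AOS, against 53.6, 57.7 and 52.9 in control, a log2 difference of 0.31 ± 0.07. Zkscan1, a zinc finger protein, measured 134, 124 and 129 in AOS, against 106, 108 and 81.6 normalized CPM in control (0.39 ± 0.10). Dph5, a methyltransferase that makes the diphthamide residue of elongation factor 2, measured 48.0, 50.9 and 46.4 in AOS, against 35.5, 40.8 and 31.7 normalized CPM in control (0.43 ± 0.10). In all 3 genes every AOS library stood above every control library, as the choice of leading genes required. Length correction gave 0.24 for Pik3r1, 0.30 for Zkscan1 and 0.48 for Dph5. Grhl2, a transcription factor of tight epithelia such as the collecting duct, measured 7.24, 6.36 and 5.94 normalized CPM in AOS, against 3.63, 4.18 and 3.63 in control, a log2 difference of 0.77 ± 0.20.

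Several leading higher genes were scarce, so that few reads carry their folds. Rgl2, an exchange factor for Ral GTPases, had 2.04, 1.5 and 1.86 normalized CPM in AOS, against 0.508, 0.577 and 0.436 in control (log2 difference 1.81 ± 0.36). Psca, a surface antigen of urothelium and other epithelia, had 2.39, 3.90 and 1.59 normalized CPM in AOS, against 0.290, 0.216 and 0.363 in control (3.14 ± 0.91). Bmp3, a bone morphogenetic protein (1.19 ± 0.29), Lrrc15, a leucine-rich repeat membrane protein (2.25 ± 0.59), C1qtnf5, a secreted protein of the complement C1q family (2.02 ± 0.57), and Mab21l3 (0.95 ± 0.27) were of the same kind, all under 5 normalized CPM in every AOS library. The remaining 4 were Ube2e3, a ubiquitin-conjugating enzyme (0.42 ± 0.12), Nfatc2, a calcineurin-dependent transcription factor (0.67 ± 0.19), Slc9a8, a sodium-proton exchanger (0.79 ± 0.23), and 4430402I18Rik (0.56 ± 0.14). None of the estimated counts of Dph5, C1qtnf5, Slc9a8 and, among the lower genes, Mthfsl was whole, so reads were shared out there too. The same held for Rgl2 in the AOS and control libraries, at 22.29 to 29.22 and 6.41 to 7.8 reads. Of the counts of 4430402I18Rik over all 12 libraries, 33.3% were whole. Unadjusted p over the 15 higher genes ran from 0.000439 to 0.00606 in edgeR, and none passed adjustment.

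**Figure D2:**
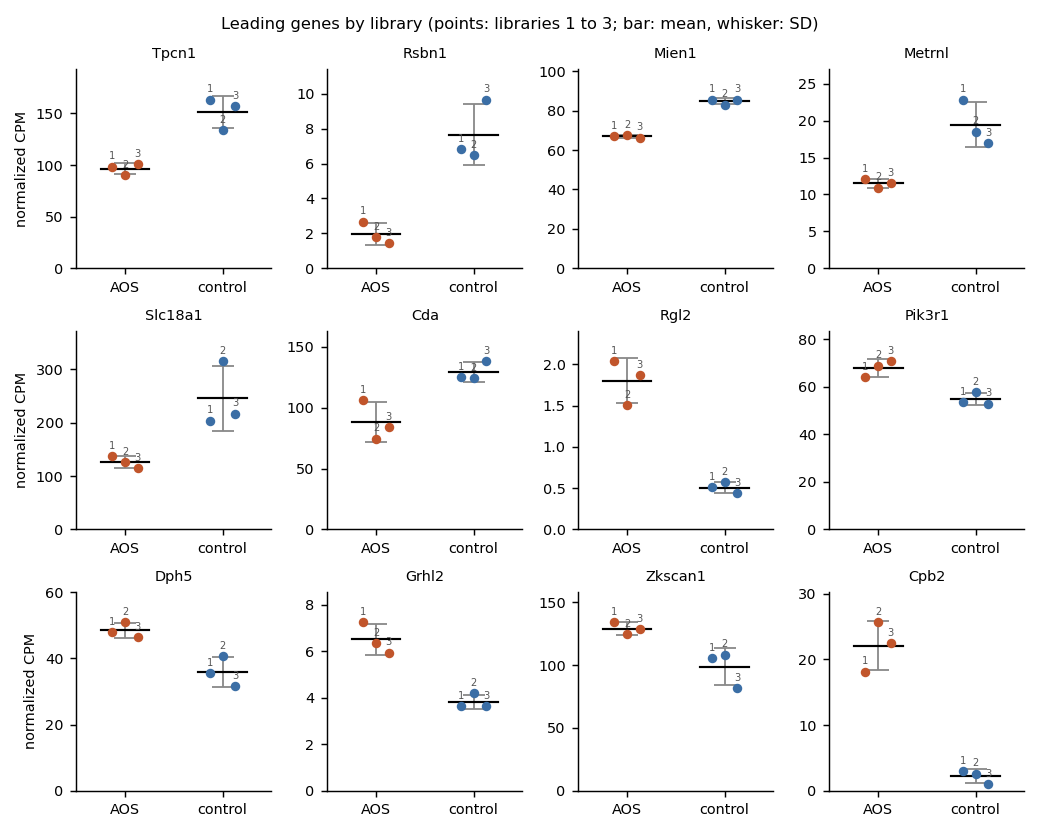
Normalized CPM (y axis, linear, starting at 0) of 12 leading genes in the 3 AOS libraries (left in each panel) and the 3 control libraries (right), 1 point per library with the mean and SD. In each panel all AOS points lie on a single side of the control points, as with Tpcn1 at 90.4 to 101 in AOS and 134 to 163 in control. The genes were chosen among those without overlap, so this separation follows from the choice.

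The same contrast in mice that had received busulfan gives these genes a second reading in libraries not shared with the first. Of the 15 leading lower genes, 8 were also lower in busulfan plus AOS than in busulfan, with a median log2 difference of -0.03 there and -0.65 in the untreated pair. Of the 15 leading higher genes, 11 were also higher, with a median of 0.32 there and 0.79 in the untreated pair. Groups stayed apart in the same direction for 5 of the 30, where 4.2% of all genes stayed apart as higher and 4.19% as lower after busulfan. At an unadjusted p under 0.05 in edgeR, 4 of the 30 differed in the same direction and 6 in the opposite one, where 8.7% of all genes had such a p after busulfan. Over all genes tested, 48.4% had the same direction in both pairs.

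Genes with a like difference in both pairs included Pxdn, at -0.52 ± 0.13 after busulfan and -0.50 ± 0.13 without it, and Elmod3, at -0.40 ± 0.12 and -0.45 ± 0.12, neither with overlapping groups. Grhl2 differed by 0.48 ± 0.20 after busulfan, again without overlap. Cpb2 differed by 3.31 ± 0.89 after busulfan, yet with 25.3, 2.4 and 50.4 normalized CPM in busulfan plus AOS and 3.65, 3.49 and 0.78 in busulfan, so that replicate 2 of busulfan plus AOS lay among the busulfan libraries. Replicate 3 of busulfan plus AOS, its highest library, also carried hepatocyte markers at a sum of 22293 CPM, and busulfan replicate 3 carried adrenal markers at a sum of 12226 CPM. Their part in the values after busulfan was not tested.

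Other genes went the opposite way. Tpcn1 was higher in busulfan plus AOS than in busulfan, by 0.21 ± 0.09, and the difference between the contrasts was 0.86 ± 0.13, with an unadjusted p of 4.04e-05 and an adjusted p of 0.292 in edgeR and an adjusted p of 2.52e-06 in DESeq2. Lpar2 was higher after busulfan by 0.77 ± 0.34 and lower without it, a difference between contrasts of 2.03 ± 0.48. Psca was lower after busulfan (-2.47 ± 0.83) and higher without it, a difference between contrasts of -5.61 ± 1.23 (unadjusted p of 0.000908 in edgeR, adjusted p of 0.0107 in DESeq2). No difference between the contrasts passed adjustment in edgeR, and DESeq2 called 11.

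**Figure D3:**
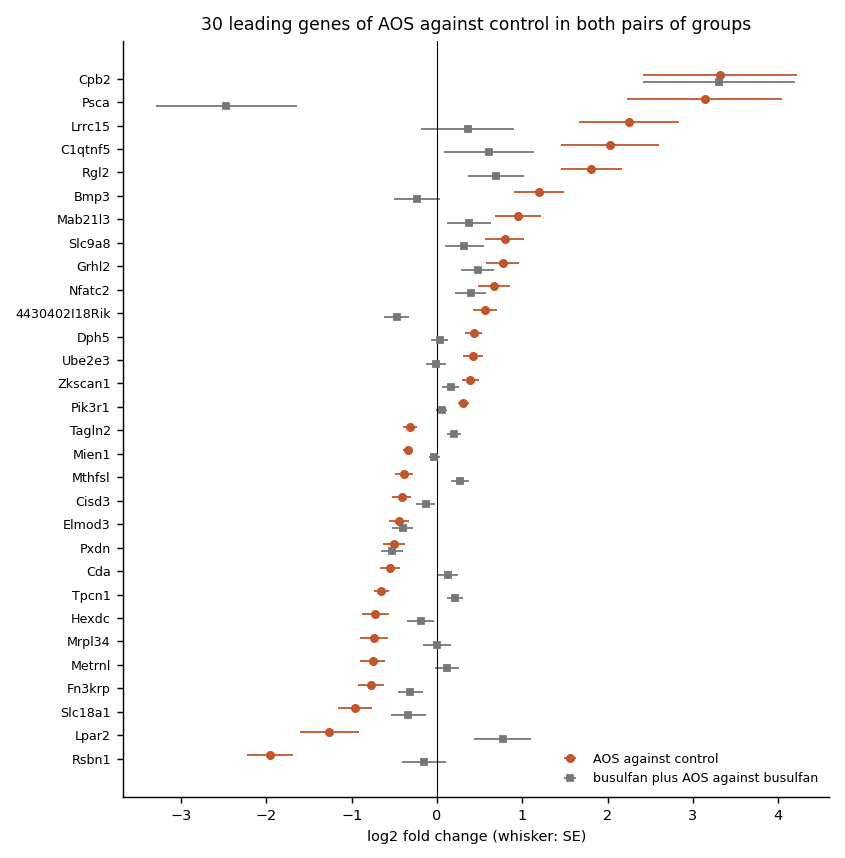
Log2 difference of the 30 leading genes with SE whiskers, in AOS over control and in busulfan plus AOS over busulfan (x axis, log2), 1 gene per row. The 15 lower genes have a median of -0.65 in the untreated pair and of -0.03 after busulfan, and the 15 higher genes 0.79 and 0.32.

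Gene groups are described next by their counts and medians, beside the 51.0% of higher genes and the median of 0.00 over all genes. Their members without overlap are read beside the 6.17% of all genes that stayed apart as higher in AOS and the 6.75% that stayed apart as lower. No member of any of the 50 lists was called in edgeR. In bulk RNA, fewer cells of a type and less RNA per cell cannot be told apart.

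Marker genes of the distal nephron were measured higher in AOS, and those of the proximal tubule lower. Of 15 intercalated cell markers, 14 were higher (all but Rhbg), with a median log2 difference of 0.27 and 4 higher without overlap (6.17% of all genes). Of 13 principal cell markers, 12 were higher (all but Kcne1), with a median of 0.16, and of 16 loop of Henle markers 13 were higher, with a median of 0.21. In the distal convoluted and connecting tubule, 9 of 12 were higher with a median of 0.04, and of -0.01 without control replicate 2. Of 35 proximal tubule markers, 8 were higher and 27 lower, with a median of -0.11 and 4 lower without overlap (6.75% of all genes). Length correction gave 0.28, 0.14, 0.21, 0.01 and -0.13 for the 5 lists in this order, and leaving out AOS replicate 3 and control replicate 1 gave 0.37, 0.23, 0.28, 0.08 and -0.09. In busulfan plus AOS against busulfan, 13 of 15, 11 of 13, 15 of 16, 10 of 12 and 21 of 35 were higher. Their medians there, in the same order, were 0.15, 0.29, 0.55, 0.12 and 0.03, so the proximal tubule list turned direction. The part of busulfan replicate 3 and busulfan plus AOS replicate 3, with their adrenal and hepatocyte markers, was not tested there.

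Single members show how far the groups were apart. Slc26a4, the pendrin exchanger of bicarbonate-secreting intercalated cells, measured 59.2, 61.4 and 72.4 normalized CPM in AOS, against 57.9, 45.5 and 41.8 in control, a log2 difference of 0.41 ± 0.15. Aqp2, the vasopressin-regulated water channel of principal cells, measured 97.2, 94.6 and 70.4 in AOS, against 62.4, 66.0 and 49.6 normalized CPM in control, a difference of 0.56 ± 0.29. Kcnj1, the potassium channel ROMK of the thick ascending limb, measured 225, 255 and 238 in AOS, against 196, 216 and 186 normalized CPM in control (0.26 ± 0.21). These 3 genes did not overlap between groups, though the highest control and the lowest AOS library of each were close. Slc22a6, the organic anion transporter OAT1 of the proximal tubule, measured 2124, 1829 and 1639 normalized CPM in AOS, against 2143, 1959 and 2328 in control (-0.20 ± 0.13), with AOS replicate 1 above control replicate 2. Anpep, aminopeptidase N of the brush border and listed with the renin-angiotensin genes, measured 333, 298 and 283 in AOS, against 380.4, 403 and 411 in control (-0.38 ± 0.14), without overlap. It is not among the proximal tubule markers, and of its own list of 10 tested genes 5 were higher and 5 lower, with a median of 0.02. Summed over the list, proximal tubule markers measured 100844, 95739 and 89123 CPM of library total in AOS, against 109183, 100325 and 106119 in control, and these ranges overlapped. Sums of intercalated cell markers (518 to 604 in AOS, 376 to 527 in control) and loop of Henle markers (6381 to 8094, 4874 to 6634) overlapped too. So did those of the distal convoluted and connecting tubule (4161 to 4449, 3757 to 4815). Principal cell sums (679 to 745, 554 to 665) did not overlap.

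Among the solute carriers, Slc15a2, the peptide transporter PEPT2 of the late proximal tubule, was higher in AOS. It measured 225, 276 and 172 normalized CPM in AOS, against 145, 171 and 129.7 in control, a log2 difference of 0.59 ± 0.19. Its FPKM differed more, at a mean of 65.5 in AOS and 25.5 in control, with 61.3, 86.6 and 48.6 FPKM in AOS libraries and 22.6, 29.2 and 24.7 FPKM in control libraries. Its counts were shared out and the implied length differed between groups, so its size of difference depends on the scale. Over the 30 organic ion and drug transporters, 11 were higher with a median of -0.04, and over 27 cytochrome P450 genes 16 were higher with a median of 0.05. Single P450 genes went both ways: Cyp2b10, a xenobiotic-inducible enzyme, measured 2.74, 1.09 and 0.967 normalized CPM in AOS, against 0.508, 0.361 and 0.581 in control (1.71 ± 0.59), and Cyp4a31, of the fatty acid hydroxylase family, 78.8, 81.0 and 62.4 in AOS, against 194, 85.2 and 152 in control (-0.96 ± 0.36). Both of these were opposite after busulfan, at -1.69 ± 0.63 and 1.13 ± 0.36.

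**Figure D4:**
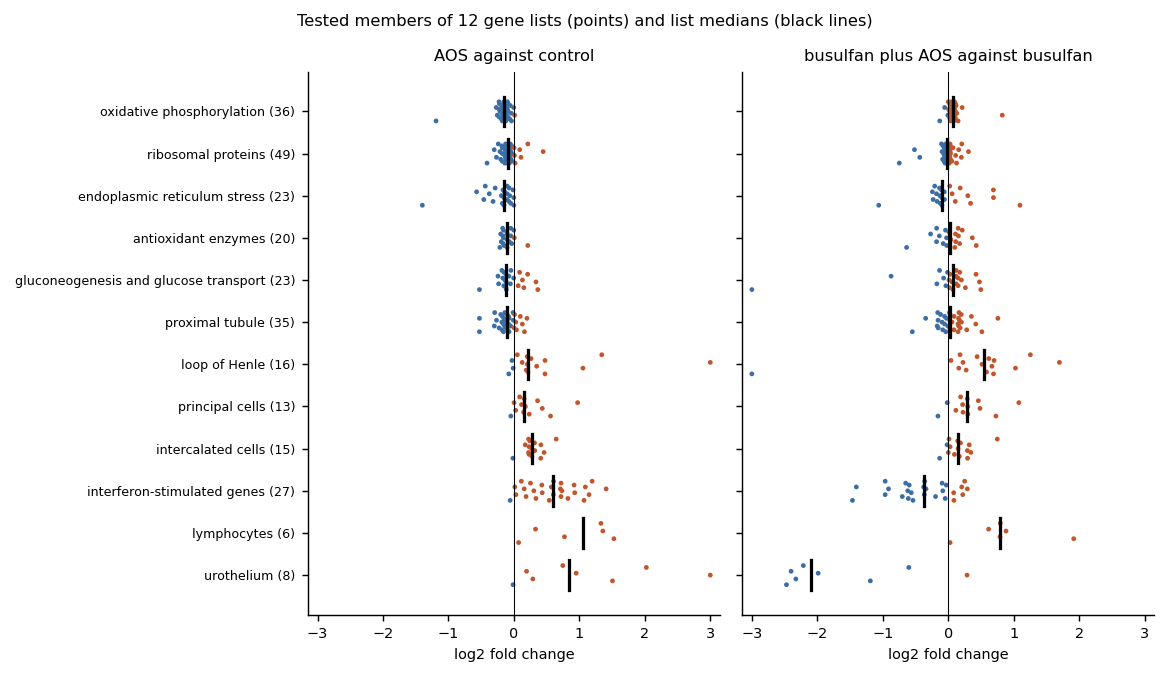
Log2 difference of every tested member of 12 gene lists (1 point per gene, with a line at the median), in AOS over control and in busulfan plus AOS over busulfan. Interferon-stimulated genes have a median of 0.60 in the untreated pair and of -0.37 after busulfan. In each panel 2 members beyond 3 are drawn at the edge.

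Interferon-stimulated genes, which cells switch on after interferon binds its receptor, were measured higher in AOS in 26 of 27 members. The exception was Gbp2, a guanylate-binding protein. The median log2 difference was 0.60, and 3 members did not overlap, against 6.17% of all genes. Length correction gave 0.61, and over the alternatives tried the median ran from 0.35, without AOS replicate 1, to 0.87, without AOS replicate 3. Ifit3, a partner of the RNA-binding protein Ifit1, measured 32.2, 24.5 and 11.7 normalized CPM in AOS, against 9.22, 14.2 and 6.39 in control, a log2 difference of 1.2 ± 0.38. Ifit1 measured 7.24, 3.83 and 1.86 normalized CPM in AOS, against 1.02, 1.95 and 1.89 in control (1.41 ± 0.59). Ifit3b measured 7.74, 6.91 and 4.49 in AOS, against 2.83, 5.34 and 2.62 in control (0.82 ± 0.34). In all 3 genes AOS replicate 1 was the highest library and AOS replicate 3 lay among the control libraries, so the groups overlapped. Ifit3 and Ifit3b had no whole counts and are close copies, so their reads may be divided between them.

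Ifih1, the cytosolic sensor of double-stranded RNA, measured 13.2, 9.91 and 12.2 normalized CPM in AOS, against 9.51, 7.07 and 6.61 in control, a log2 difference of 0.61 ± 0.28 without overlap. As a sum the 29 genes of the list in the table measured 484.7, 380.1 and 337.8 CPM of library total in AOS, against 306, 313 and 258 CPM in control. The AOS libraries all stood above the control libraries, and the exact two-sided permutation p was 0.1, the smallest that 3 against 3 allows. After busulfan 6 of the 27 were higher in busulfan plus AOS than in busulfan, with a median of -0.37. The sums there were 317, 363 and 451 CPM in busulfan plus AOS and 328, 431 and 955 CPM in busulfan. Busulfan replicate 3, the library with adrenal markers, was by far the highest, and its part in that median was not tested.

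The promoter windows of these Ifit genes hold the letters of the interferon-stimulated response element, a DNA motif through which interferon acts on target genes. It was searched as GAAA, any 2 bases and GAAA, on both strands, in the RefSeq promoter windows of 250 bases before to 50 bases after each gene's start (GRCm38.p6). Among the 27 genes, 19 had a promoter there, and 12 of these (63.2%) held the letters, against 425 of 11040 tested genes (3.85%) and 1131 of 32851 promoters (3.44%). The 27 were listed as known interferon targets, so a high share follows from that choice and says nothing about AOS. Below are the windows of Ifit3, Ifit3b and Ifit1, the members with the values above, printed along the plus strand, on which all 3 genes lie. Capitals mark the match, which reads in reverse complement, on the minus strand. The matches begin 156 and 122 bases before the start that the promoter table uses for Ifit3, 188 and 154 bases before that for Ifit3b, and 104 and 85 bases before that for Ifit1. For Ifit1 this is the first base of the annotated gene, while for Ifit3 and Ifit3b it lies 410 and 427 bases inside the annotated gene, so that the windows of both lie within the gene. The windows of Ifit3 and Ifit3b are letter for letter the same. Matches before the start also occurred in Isg15 (log2 difference 1.09), Oas1a (1.07), Gbp3 (0.43), Bst2 (0.34), Stat2 (0.11), Rsad2 (0.03) and Gbp2 (-0.06). Whether the motif goes with the size of the difference was not tested. A match is a description of the letters, not of binding in these kidneys.
Ifit3, chr19:34583363-34583392: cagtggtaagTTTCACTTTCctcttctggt
Ifit3, chr19:34583397-34583426: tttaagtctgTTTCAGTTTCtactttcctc
Ifit3b, chr19:34607759-34607788: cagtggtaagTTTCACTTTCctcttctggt
Ifit3b, chr19:34607793-34607822: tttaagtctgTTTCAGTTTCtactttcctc
Ifit1, chr19:34640775-34640804: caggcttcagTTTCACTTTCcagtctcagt
Ifit1, chr19:34640794-34640823: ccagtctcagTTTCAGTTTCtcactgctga

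The tested markers of lymphocytes were measured higher in AOS as well. The table holds 12 of them, of which 6 could be tested, and all 6 were higher, with a median log2 difference of 1.05. All 6 were also higher in busulfan plus AOS than in busulfan, with a median of 0.79. Jchain, the chain that joins secreted antibodies and a mark of plasma cells, measured 48.2, 42.4 and 24.9 normalized CPM in AOS, against 7.11, 27.6 and 10.3 in control (1.36 ± 0.48), with control replicate 2 above AOS replicate 3. Cd79a, a subunit of the B cell receptor, measured 0.633, 0.889 and 1.45 in AOS, against 0.363, 0.433 and 0.218 normalized CPM in control (1.53 ± 0.45), without overlap. It had only 3 to 21 reads a library. The sum over the 12 genes was 55.4, 52.6 and 42.2 CPM of library total in AOS and 17.0, 31.6 and 14.1 CPM in control. In the AOS libraries Jchain made up most of that sum. The 6 members that could not be tested had at most 14 reads in any of the 6 libraries. Their highest read numbers in AOS and control were 3 and 4 for Cd3e, 4 and 6 for Cd3d, and 6 and 8 for Nkg7. They were 14 and 10 for Cd4, 8 and 7 for Ms4a1, and 7 and 3 for Ncr1. Of 14 macrophage markers 10 were higher, with a median of 0.06, and of -0.05 without AOS replicate 1. Adipose markers, from fat around the kidney, were higher in 9 of 12 with a median of 0.57, but of -0.18 without AOS replicate 1.

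Urothelial markers, from the lining of the renal pelvis, moved with the AOS group too. Of 8 tested members 7 were higher with a median of 0.85 and 5 without overlap (6.17% of all genes), among them Psca. Upk1b, a uroplakin of the urothelial surface, measured 1.27, 1.64 and 0.898 normalized CPM in AOS, against 0.581, 0.649 and 0.727 in control (0.95 ± 0.56). The list summed to 69.3, 89.3 and 67.6 CPM of library total in AOS and 64.5, 56.7 and 43.8 CPM in control, which did not overlap. How much renal pelvis each piece of kidney held is not given, and its part in these values was not tested. After busulfan 1 of the 8 was higher, with a median of -2.10.

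Genes of mitochondrial respiration were measured lower in AOS, by a small amount that moved with length. Of 36 genes for subunits of the oxidative phosphorylation complexes, 35 were lower (all but Atp5a1), with a median log2 difference of -0.14 and 19 lower without overlap, against 6.75% of all genes. Their median implied length was 772 bases, in the range where most genes were lower in AOS. With length correction 33 of 36 stayed lower at a median of -0.05, and without AOS replicate 3 and control replicate 1 the median was -0.08. Atp5g1, which encodes the c subunit of ATP synthase, measured 87.1, 61.1 and 114 normalized CPM in AOS, against 166, 153 and 278 in control (-1.19 ± 0.37, and -1.07 with length correction), from counts none of which was whole. Ndufb5, of complex I, measured 133, 134 and 129 in AOS, against 154, 149 and 150.2 normalized CPM in control (-0.19 ± 0.08), which did not overlap. Its difference was -0.09 with length correction. After busulfan 33 of the 36 were higher in busulfan plus AOS, with a median of 0.07.

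Cytosolic ribosomal proteins, with a median length of 607 bases, behaved alike at face value, but their direction turned with length correction. Of 49 genes 42 were lower in AOS with a median of -0.10 and 19 without overlap (6.75% of all genes), whereas with length correction 28 were higher and 21 lower with a median of 0.01. Rpl19, of the large subunit, measured 248, 241 and 230.1 normalized CPM in AOS and 266, 284 and 264 in control (-0.18 ± 0.06). No direction is therefore given for this list.

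Genes of the endoplasmic reticulum stress response were lower in all 23 members, with a median log2 difference of -0.15 and 5 without overlap (6.75% of all genes). As a sum they overlapped, at 4790.1, 4678 and 4988 CPM of library total in AOS, against 4468, 5561 and 5309 CPM in control, where control replicate 1 was the lowest of the 6. Their median implied length was 1986 bases, against 2714 bases over all genes, and length correction left the median at -0.14, with 21 of 23 lower. Pdia6, a disulfide isomerase that folds secreted proteins, measured 199, 186 and 203 normalized CPM in AOS, against 225, 263 and 245 in control (-0.32 ± 0.16). Creld2, another secretory chaperone, measured 20.7, 21.5 and 22.2 in AOS, against 23.5, 27.2 and 33.1 normalized CPM in control (-0.38 ± 0.29). Asns, asparagine synthetase of the amino acid response, measured 4.29, 4.58 and 3.18 in AOS, against 6.1, 5.84 and 5.96 normalized CPM in control (-0.57 ± 0.34), and was also lower after busulfan (-1.06 ± 0.34). The groups of these 3 genes did not overlap, and none had an unadjusted p under 0.05 in edgeR for the untreated pair.

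Antioxidant enzymes were measured lower in AOS rather than higher. Of 20 antioxidant enzymes 18 were lower, with a median log2 difference of -0.11 and 7 lower without overlap (6.75% of all genes), and length correction gave -0.07. Txn2, mitochondrial thioredoxin, measured 177, 178 and 171 normalized CPM in AOS, against 208, 184 and 198 in control (-0.17 ± 0.07). Sod1, cytosolic superoxide dismutase, measured 574, 569 and 506 in AOS, against 604, 667 and 587 normalized CPM in control (-0.17 ± 0.10). Neither gene overlapped between groups, and the gaps were small. With length correction the differences were -0.10 for Txn2 and -0.05 for Sod1. The list summed to 30786 to 35414 CPM of library total in AOS and 30462 to 38185 CPM in control, which overlapped. Of 25 targets of Nrf2, the transcription factor of the antioxidant response, 11 were higher with a median of -0.05. Fth1, the iron-storing ferritin heavy chain and an Nrf2 target, measured 4085, 3964 and 3481 in AOS, against 4485, 4325 and 4196 normalized CPM in control (-0.17 ± 0.11), without overlap. Length correction gave -0.08 for Fth1.

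Genes of glucose production were lower in 16 of 23 members, with a median of -0.12 and 6 lower without overlap (6.75% of all genes), and length correction gave -0.08. Pck1, the rate-limiting enzyme of gluconeogenesis in the proximal tubule, measured 1163, 964 and 1007 normalized CPM in AOS, against 1338, 1594 and 1584 in control, a log2 difference of -0.53 ± 0.18. Slc37a4, which carries glucose 6-phosphate into the endoplasmic reticulum, measured 254, 234 and 243 in AOS, against 299, 271 and 295 normalized CPM in control (-0.24 ± 0.09). Both were apart in every library, and after busulfan both differed by less than their SE (0.02 ± 0.18 and -0.04 ± 0.09). The list summed to 15983, 15332 and 16404 CPM of library total in AOS and 17592, 16579 and 17568 CPM in control. Without control replicate 1, however, 12 of the 23 were higher and the median was 0.00. Of 31 genes of fatty acid oxidation 22 were lower with a median of -0.09, and of 30 genes of cholesterol and fatty acid synthesis 23 were higher with a median of 0.11, and of -0.03 without AOS replicate 3.

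**Figure D5:**
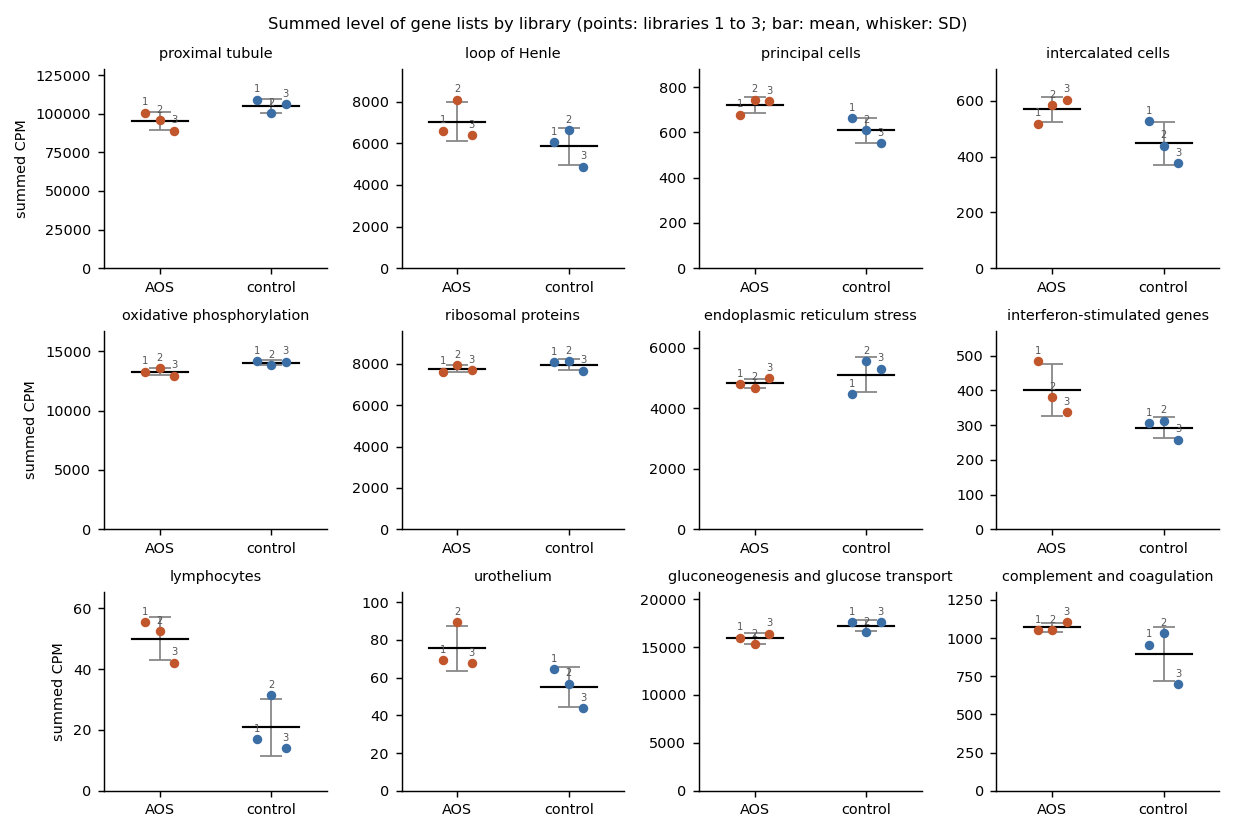
Sum of CPM of library total over the members of 12 gene lists in each AOS library (left) and control library (right), with the mean and SD. Lymphocyte markers sum to 42.2 to 55.4 CPM in AOS and 14.1 to 31.6 CPM in control, without overlap. Proximal tubule, loop of Henle and intercalated cell markers overlap.

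Genes of inflammation by way of Toll-like receptors, for which seaweed sugars have been studied, showed no common direction. Of 24 members of the Toll-like receptor and NF-kB response 12 were higher and 12 lower, with a median log2 difference of -0.01. Tlr4, the endotoxin receptor, measured 3.94, 3.83 and 3.38 normalized CPM in AOS, against 3.34, 2.67 and 2.76 in control, which did not overlap by a narrow margin (0.35 ± 0.30). Cxcl10, a chemokine that interferon and NF-kB induce, measured 0.985, 0.752 and 0.622 in AOS, against 0.653, 1.8 and 4.29 normalized CPM in control (-1.51 ± 0.69), with control replicate 1 the second lowest of the 6. Tnfaip3, a brake on NF-kB, measured 4.43, 3.9 and 5.32 in AOS, against 3.92, 3.61 and 4.0 normalized CPM in control (0.24 ± 0.17), which overlapped.

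Of 24 tubular injury genes 15 were higher with a median of 0.22. That median was 0.05 without control replicate 3, 0.06 without AOS replicate 2, and 0.01 over the 17 members that reached 5 CPM in 3 libraries, of which 9 were higher. Havcr1, the injury molecule KIM-1 of the proximal tubule, measured 4.29, 3.76 and 5.39 normalized CPM in AOS, against 2.47, 3.10 and 2.33 in control, a log2 difference of 0.77 ± 0.27 without overlap. Spp1, osteopontin, measured 562, 645 and 613 in AOS, against 569, 483 and 481 normalized CPM in control (0.25 ± 0.16), where control replicate 1 lay among the AOS libraries. Of 30 p53 targets 16 were higher with a median of 0.01, and Cdkn1a, the cell cycle inhibitor p21, measured 4.22, 4.79 and 3.18 in AOS, against 3.63, 5.41 and 5.74 normalized CPM in control (-0.28 ± 0.32). Of 30 proliferation genes 11 were higher with a median of -0.10, which turned to 0.10 without AOS replicate 3 and control replicate 1. Of 16 core clock genes 8 were higher with a median of 0.01.

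Androgen-responsive genes, which mark the proximal tubule of male mice, had a lower sum in AOS, while single members went both ways. Of 21 genes 9 were higher and 12 lower, with a median log2 difference of -0.14. Kap measured 38291, 35394 and 27643 normalized CPM in AOS, against 45263, 39377 and 40080.5 in control (-0.30 ± 0.22), and Odc1, ornithine decarboxylase of polyamine synthesis, 2246, 1818 and 1175 in AOS, against 1804, 2471 and 3038 in control (-0.48 ± 0.33). Kap is by far the most abundant of them and makes up most of the list sum. It was below control in every AOS library, while Odc1 overlapped. Kap is also a short transcript. Its difference was -0.17 with length correction and -0.10 without AOS replicate 3 and control replicate 1. Of 10 reference genes for housekeeping use 8 were lower in AOS, with a median of -0.07 (-0.01 with length correction), and Ywhaz, a 14-3-3 adaptor protein, measured 504, 479 and 418 normalized CPM in AOS and 537, 521 and 534 in control (-0.18 ± 0.09).

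Over the 49 lists with a tested member, the list sum was higher in all AOS libraries than in all control libraries for 7 lists and lower for 6, and overlapped for 36. The 7 were principal cells, lymphocytes, neutrophils, urothelium, interferon-stimulated genes, complement and coagulation, and cholesterol and fatty acid synthesis. The 6 were Nrf2 targets, oxidative phosphorylation, gluconeogenesis, androgen-responsive genes, iron handling and replication-dependent histones. Each of these 13 had an exact two-sided permutation p of 0.1, the smallest that 3 libraries against 3 can give, so none could pass a threshold of 0.05. List sums use the library total alone, a scaling that put 63.9% of all genes higher in AOS, against 51.0% with normalized CPM. Whether these sums stay apart on normalized CPM was not tested. On that scale 12.9% of all genes stayed apart in either direction.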

How the data were processed

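RNA-seq of mouse kidney was analysed from 1 deposited table of 19261 genes in 12 samples, grouped by their titles. The authors deposited an estimated count per gene and library, unscaled and in part not whole. The second value the authors deposited has no named unit and was read as FPKM, judged by its ratio to count and library total. The build is mm10 per the submitters' processing notes; the aligner, quantifier and strandedness were not given in the sources used here, so overlapping genes and close copies are uncertain. Counts were rounded, filtered with filterByExpr to 14428 genes, scaled by trimmed means of M values and tested with edgeR 4.0.16 (R 4.3.3) by quasi-likelihood, with a mean for each group, over all 12 libraries (8 residual degrees of freedom, biological coefficient of variation 26.8%). P-values are two-sided, with Benjamini-Hochberg adjustment across the tested genes and a threshold of 0.05. Normalized CPM use the scaled library sizes, and list sums the library total alone. The code was tested on simulated data.

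Members, lists and rules were chosen with earlier results of these data known. Named genes are, per direction, the 15 of lowest p whose groups did not overlap and whose higher mean was at least 1 CPM, the 6 of largest difference at 5 CPM or more, up to 4 members per list, the reference genes and the most abundant genes; the text names part of them. Gbp2, Rhbg, Kcne1, Atp5a1 and 1810064F22Rik were named after their values were seen.

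Implied transcript length is count over FPKM and library total, for genes with at least 0.5 FPKM and 10 reads. The length correction and the setting without AOS replicate 3 and control replicate 1 were added after the data were seen. Of 18290 Entrez identifiers 18164 matched RefSeq (GRCm38.p6), which also gave promoters and positions. Another 971 models had only a BGIG identifier. Alternatives used DESeq2 1.42.0 and limma 3.58.1. No library was a duplicate: even the most alike pair (AOS replicates 1 and 2) varied 5.36 times as much as sampling alone gives.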

Additional observations from a re-analysis of the deposited data

How the results depend on the processing

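The count of genes called for AOS against control was 0 in edgeR, 10 in DESeq2 (all lower in AOS) and 1 in limma with voom and quality weights. It stayed at 0 under limma on log2(FPKM + 1) and log2(FPKM + 0.1), other scalings, no filter or a stricter filter, unrounded counts, only the compared groups, a 2-fold minimum, an adjusted p of 0.1 and length correction, and with each library left out in turn. With length correction 369 genes had an unadjusted p under 0.05 and the smallest adjusted p was 0.160. For busulfan plus AOS against busulfan the count was 0 in edgeR, 24 in DESeq2, 1 in limma on log2(FPKM + 0.1), 1 without replicate 3 of both groups, and 0 to 26 with each library left out in turn, where 26 came without busulfan plus AOS replicate 1. For the difference between the contrasts it was 0 in edgeR, 11 in DESeq2, 1 in limma on log2(FPKM + 0.1) and 0 to 1 with each library left out. The cause of these differences was not tested. A replicate block gave 0 calls in each of the 3 comparisons; samples with the same number correlated in their deviations at 0.01, 0.15 and 0.14, so the numbers were not taken to pair them. Over 2165 combinations of 104 named genes and a setting, 2155 kept direction and side of the threshold, 10 passed it (9 genes in DESeq2 and Tpcn1 in voom) and 0 changed sign. Among the 10 genes of DESeq2, 1810064F22Rik was read in only control replicate 2 of the 6 AOS and control libraries. Depth and 3 libraries a group limit genes under 10 CPM most.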
